A study of Mus musculus with 48 samples.

Results

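The genes described here encode proteins that carry a cell from the end of DNA replication through mitosis. They were chosen by name from a list of 44 symbols, and a listed gene was measured when at least 1 probe set on the array named it alone. The list and the design of the fit were chosen with earlier results of these data known. The counts and calls below therefore describe these genes and are not an independent test of them. By that rule 39 of the 44 were measured, of 8252 genes measured in all. Ccnb1, Cdc25b, Bub1b, Cenpf and Hmmr had no probe set of their own. The 39 genes were covered by 52 probe sets: 28 genes had 1, 9 had 2 and 2 had 3, and the probe sets of a gene were averaged.

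Mitosis is driven by the kinase Cdk1 bound to cyclins A and B. Transcripts of most of its effectors are low after division, build up through S and G2 phase and peak as cells divide, so that their level in a tissue moves with the share of its cells in those phases. In the early limb bud both layers divide quickly: the mesoderm gives rise to cartilage and connective tissue, and the ectoderm covers it and carries the signalling ridge at its edge. In bulk tissue, fewer dividing cells and less RNA per dividing cell cannot be told apart.

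Dams received, on gestation day 9.5, either cadmium sulfate, 4 mg/kg in phosphate buffered saline (PBS), or acetazolamide, a carbonic anhydrase inhibitor, 400 mg/kg in vegetable oil; the controls are the arrays labelled with the vehicle alone. Embryos were taken 3 or 12 h later, the right forelimb buds were split with trypsin into ectoderm and mesoderm, and each layer was pooled over several litters before RNA was made. The 48 arrays formed 16 groups of 3, giving 8 comparisons of an agent with its own vehicle (2 agents, 2 tissues, 2 times) that share no array. The series description speaks of RNA extracts that were not pooled, and the labels do not say whether the 3 extracts of a group came from separate litters, so the p-values measure the spread between these arrays, which may be technical. Every deposited value was a ratio to the vehicle arrays of its own comparison. The values therefore hold no expression level: the purity of the layers could not be read from the level of their defining markers, and levels could not be compared between genes, tissues or times. Values below are log2 of these ratios, so that 0 is the vehicle level and a negative value is below it.

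Promoter windows from RefSeq (GRCm38.p6) were at hand for 31 of the 39 genes, 34 windows in all, each 250 bases before to 50 after an annotated transcript start. The other 8 genes, Ccna2 and Foxm1 among them, are RefSeq genes too but had no window in the set used. They were searched on both strands for TTTGAA and TTCGAA, the letters of the cell cycle homology region, an element known from many G2 and M phase promoters, and for CCAAT, the box bound by NF-Y. TTTGAA or TTCGAA was present in 27 of the 34 windows (79.4%), against 19.2% of all 32851 windows of that length. CCAAT was present in 28 (82.4%), against 37.4% of all. Both stood together in 25 (73.5%), against 7.52% of all. These are matches of letters, not measured binding. The stretches before the start are shown for 4 genes whose values are described below: Kif11, Cdk1 and Top2a, which hold both elements, and Nek2, whose stretch holds no whole match to either. Letters of a match, on either strand, are in capitals, and no base after the gene's outermost annotated start is printed. The stretches are Nek2 at chr1:191821273-191821448 on the plus strand, Kif11 at chr19:37376182-37376381 on the plus strand, Cdk1 at chr10:69352913-69353112 on the minus strand and Top2a at chr11:99024200-99024389 on the minus strand, each written 5′ to 3′ on the gene's strand.
Nek2: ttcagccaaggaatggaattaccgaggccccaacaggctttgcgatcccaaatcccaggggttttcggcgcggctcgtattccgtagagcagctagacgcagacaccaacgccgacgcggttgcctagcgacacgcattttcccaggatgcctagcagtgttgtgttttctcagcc
Kif11: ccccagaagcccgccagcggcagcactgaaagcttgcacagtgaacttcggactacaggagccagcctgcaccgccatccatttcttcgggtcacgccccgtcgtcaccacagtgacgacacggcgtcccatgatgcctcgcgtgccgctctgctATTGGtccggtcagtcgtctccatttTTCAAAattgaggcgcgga
Cdk1: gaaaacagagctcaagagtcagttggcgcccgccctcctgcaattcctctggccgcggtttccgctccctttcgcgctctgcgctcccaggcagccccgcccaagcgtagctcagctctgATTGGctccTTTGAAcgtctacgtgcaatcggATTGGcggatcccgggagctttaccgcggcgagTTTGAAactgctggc
Top2a: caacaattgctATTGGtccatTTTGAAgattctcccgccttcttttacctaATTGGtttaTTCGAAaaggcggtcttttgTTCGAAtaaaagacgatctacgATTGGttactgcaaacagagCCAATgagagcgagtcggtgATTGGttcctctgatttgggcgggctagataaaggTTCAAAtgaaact

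In Kif11 the first base of the match to TTTGAA lay 19 bases before the start and that of the CCAAT match 45 before. In Cdk1 the matches nearest the start lay 15 and 48 bases before it, and in Top2a 23 and 58. Distances are counted from the transcript start of the window, and the printed stretch of Top2a ends 10 bases before that start. Nek2 held a CCAAT match 26 bases before the start of the transcript used for its window; its first 2 bases end the printed stretch, in lower case, and the rest lie beyond it. The genes with both elements in a window numbered 22, and their median log2 difference in ectoderm 12 h after cadmium was -0.34. The 9 genes whose windows lacked the pair had a median of -0.34 as well. In the mean of the layers 12 h after cadmium the medians were -0.24 and -0.18, and in ectoderm 12 h after acetazolamide 0.24 and 0.10. No test was made between these sets.

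At 12 h after cadmium, most mitosis genes lay below the PBS level in ectoderm, and 2 fell over the layers together. Nek2, a kinase that frees the centrosomes from each other at mitotic entry, fell by 0.71 on the log2 scale in the mean of ectoderm and mesoderm (SE 0.16, 1.64-fold lower; adjusted p = 0.0226, limma with Benjamini-Hochberg adjustment over all 8252 genes). Ccna2, the cyclin A that partners Cdk1 and Cdk2, fell by 0.49 (SE 0.12, 1.41-fold lower; adjusted p = 0.0394). Of all genes, 61 fell in that mean (0.739%) and 27 rose. That total of 88 ran from 21 (without array 3 of either ectoderm group) to 174 (without ectoderm cadmium array 2). No mitosis gene passed in ectoderm or in mesoderm on its own.

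These 2 calls rest on few arrays. Neither gene passed when ectoderm PBS array 2 or 3, ectoderm cadmium array 1 or 3, mesoderm PBS array 3 or mesoderm cadmium array 3 was left out. Nek2 alone passed without ectoderm cadmium array 2, mesoderm PBS array 1 or mesoderm cadmium array 2, and 4 genes passed without mesoderm cadmium array 1. Without ectoderm PBS array 1 it was Nek2 and Cdk1, and without mesoderm PBS array 2 it was Nek2, Kif11 and Ccna2. With equal weights for all comparisons 5 mitosis genes passed (Nek2, Kif11, Ccna2, Cdk1 and Prc1), so both calls held and 3 were added. That setting called 179 of all genes, against 88 in the main fit. No mitosis gene passed in a fit to the 12 h cadmium and PBS arrays alone. The main fit counted the arrays of the 2 layers as separate, although both layers may have come from the same pools. With the layers averaged by array number before the fit, Anln and Ccna2 passed and Nek2 did not, among 60 of all genes. Over all settings the adjusted p ran from 0.00317 to 0.812 for Nek2 and from 0.00477 to 1.0 for Ccna2.

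Within ectoderm alone, 34 of the 39 genes had a fitted difference below 0 at 12 h after cadmium, against 42.4% of all genes, and their median was -0.36, against 0.03 over all genes. The count ran from 29 to 36 when single arrays were left out, and the median from -0.51 (without PBS array 1) to -0.21 (without PBS array 2). No mitosis gene passed at an adjusted p under 0.05, and 2 of all genes did (0.0242%). At an unadjusted p under 0.05, 5 of the 39 were lower, against 3.37% of all genes, and none was higher. For 9 of the 39 every cadmium array lay below every PBS array, as for 5.72% of all genes. Overlap of groups, here and below, only describes the ratios. Vehicle array 3 is fixed at 0, and the ratios of vehicle arrays 1 and 2 sum to 2, so these arrays cannot vary freely. Treated array 3 is inferred to have another denominator than vehicle arrays 1 and 2. Groups that are apart are therefore not a separation of independent measurements. Ectoderm 12 h after cadmium had the widest spread of the 8 comparisons, with a residual SD of 0.22 on the log2 scale in the median gene. The 95% interval of a mitosis gene reached 0.51 to either side in the median gene. With equal weights, 5 mitosis genes passed here, among 89 of all genes.

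**Figure D1:**
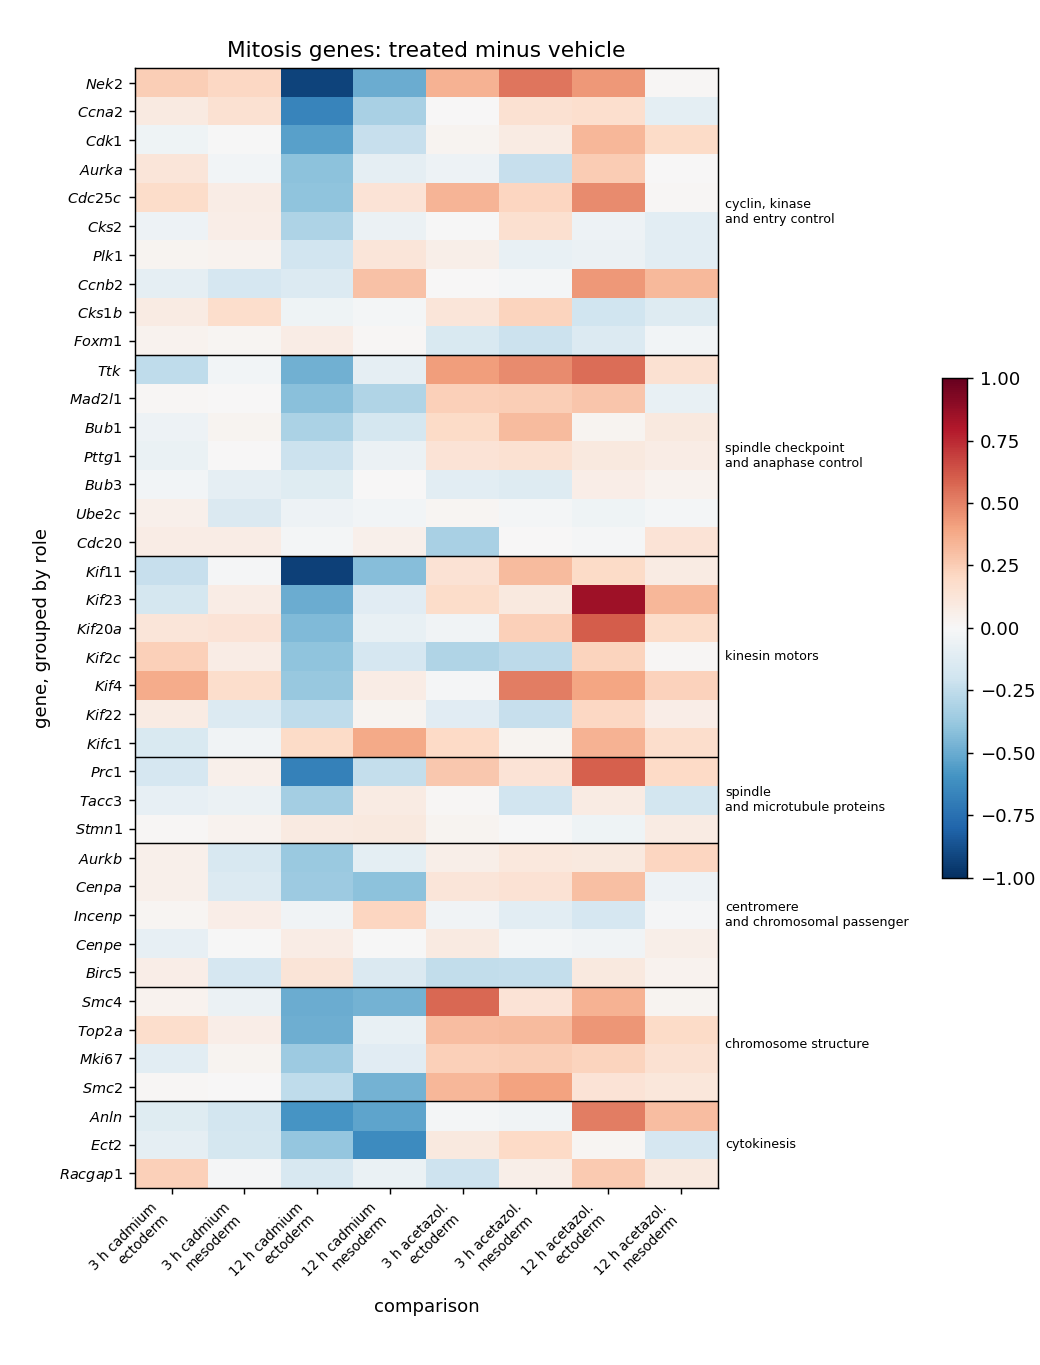
Fitted log2 difference, treated minus vehicle (colour, from -1 to 1), of the 39 mitosis genes (rows, grouped by role) in the 8 comparisons (columns, 3 arrays against 3 each). The column of ectoderm 12 h after cadmium is below 0 for 34 of 39 genes, and that of ectoderm 12 h after acetazolamide is above 0 for 30.

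Among the 10 cyclins, kinases and regulators of mitotic entry, 9 were below 0 in this ectoderm comparison. Ccna2 stood at -0.474, -0.677 and -0.833 in the cadmium arrays and at -0.0101, 0.00998 and 0 in the PBS arrays. Its groups did not overlap, and its PBS arrays were closer together than those of any other gene of the 6 named first by size. That closeness reflects only how near PBS arrays 1 and 2 were to each other. The difference was -0.66 ± 0.22 (SE; adjusted p = 0.758, limma). Cdk1, the mitotic kinase itself, stood at -0.568, -0.434 and -0.648 after cadmium and at -0.196, 0.172 and 0 after PBS. All its cadmium arrays were below all its PBS arrays, and the difference was -0.54 ± 0.18 (SE; adjusted p = 0.758, limma). Nek2 stood at -1.09, -0.461 and -1.42 after cadmium and at -0.627, 0.436 and 0 after PBS. Here the groups overlapped, because PBS array 1 was below cadmium array 2. Aurka, the centrosome kinase, was at -0.41, Cdc25c, a phosphatase that activates Cdk1, at -0.40, and Plk1, a kinase acting from entry to cytokinesis, at -0.19. Foxm1, a transcription factor that drives many genes of this group, was the exception at 0.07 ± 0.19 (SE). The small Cdk-binding subunits Cks2 and Cks1b were at -0.31 and -0.04, and the cyclin Ccnb2 at -0.14.

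Of the 7 kinesins, the motors that build and move the spindle, 6 were below 0. Kif11, which pushes the spindle poles apart, stood at -0.589, -0.471 and -1.77 after cadmium and at -0.225, 0.195 and 0 after PBS. The groups did not overlap, and array 3 was far below the other cadmium arrays. Its difference was -0.93 ± 0.35 (SE; adjusted p = 0.838, limma). Kif23 and Kif20a, both needed at the midzone of the dividing cell, were at -0.49 and -0.44 with groups that did not overlap. Kif2c, which depolymerises microtubules at centromeres, was at -0.40, and the chromosome-bound motors Kif4 and Kif22 were at -0.38 and -0.26, each with overlapping groups. Kifc1, a motor that focuses spindle poles, was at 0.19 ± 0.56 (SE), and its cadmium arrays ran from -0.617 to 1.14.

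Prc1, which bundles the microtubules of the midzone, stood at -0.445, -0.499 and -1.09 after cadmium and at -0.0816, 0.0773 and 0 after PBS. No cadmium array reached a PBS array, and the difference was -0.68 ± 0.25 (SE; adjusted p = 0.821, limma). Anln, a scaffold of the contractile ring, stood at -0.455, -0.539 and -0.789 after cadmium and at -0.185, 0.164 and 0 after PBS. These groups were apart too, with a difference of -0.59 ± 0.32 (SE; adjusted p = 0.983, limma). All 3 cytokinesis genes, all 4 genes of chromosome structure and all 7 of the spindle checkpoint and anaphase control were below 0. The largest of the chromosome structure genes were Smc4, a condensin subunit, at -0.50 and Top2a, which untangles sister DNA, at -0.49. In Smc4, cadmium array 3 at -1.33 was far from arrays 1 and 2 at -0.17 and -0.00623. The checkpoint genes ran from -0.48 (Ttk, the kinase that starts the checkpoint) to -0.02 (Cdc20, an activator of the anaphase-promoting complex). Between them lay Mad2l1 at -0.42 and Bub1 at -0.32, which hold back anaphase until chromosomes are attached, Pttg1, the securin, at -0.21, Bub3 at -0.12 and Ube2c at -0.05. The value of Bub1 averages unlike probe sets, at -0.82, -0.13 and -0.002, and that of Pttg1 averages -0.44 and 0.01.

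The 5 centromere and chromosomal passenger genes were split. Aurkb, the passenger kinase, was at -0.37 and Cenpa, the centromeric histone, at -0.36, while Incenp was at -0.03, Cenpe at 0.08 and Birc5, the passenger subunit survivin, at 0.13. The averaged probe sets differed in direction for Incenp (0.19 and -0.25) and for Cenpe (-0.02 and 0.17). In Birc5 the cadmium arrays ran from -0.702 to 0.702, the standard error was 0.34, and no direction can be read. Mki67, a coat protein of mitotic chromosomes widely used as a proliferation marker, was at -0.37, and its cadmium arrays were at 0.0169, -0.0757 and -1.12, array 3 lying far below the others. Its 2 probe sets did not move alike, at -0.76 and 0.03. Smc2 was at -0.26, with arrays from -1.03 to 0.557. Ect2 at -0.38 and Racgap1 at -0.16 made up the cytokinesis genes with Anln. Tacc3, which stabilises spindle microtubules, was at -0.34, and Stmn1 at 0.09.

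Mesoderm 12 h after cadmium showed smaller differences with less spread. There 27 of the 39 genes were below 0, against 45.6% of all genes, and the median was -0.08, against 0.01 over all genes. That median was -0.01 without array 3 of either group, -0.12 without PBS array 1 and -0.14 without cadmium array 1. None passed the adjusted threshold, while 188 of all genes did (2.28%). With the replicate block, which pairs arrays of the same number, Anln and Ccna2 passed, and with no denominator term Anln did. These settings called 230 and 208 of all genes. Dropping array 3 of either group left 44 calls over all genes, dropping the second cadmium array 88 and dropping the first PBS array 98, while dropping the first cadmium array gave 254. Equal weights gave 22 calls and a fit confined to the 6 arrays compared gave 0. At an unadjusted p under 0.05, 9 were lower, against 7.11% of all genes, and 2 were higher, against 6.73%. Groups did not overlap for 9 genes that were lower, against 9.51% of all genes, and for 2 that were higher, against 9.8%.

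Nek2 had the smallest adjusted p of the mitosis genes there. Its cadmium arrays were at -0.333, -0.457 and -0.715 and its PBS arrays at 0.119, -0.13 and 0. The groups were apart, with a difference of -0.50 ± 0.15 (SE; adjusted p = 0.0828, limma). Anln was the most even: its cadmium arrays were at -0.482, -0.561 and -0.529 and its PBS arrays at 0.0459, -0.0474 and 0. The difference was -0.52 ± 0.16 (SE; adjusted p = 0.0938, limma). Ect2, the exchange factor that switches on RhoA for cytokinesis, had the largest difference: its cadmium arrays were at -0.413, -0.775 and -0.77 and its PBS arrays at 0.279, -0.347 and 0. All cadmium arrays were below PBS, at a difference of -0.63 ± 0.24 (SE; adjusted p = 0.195, limma). Smc2, the partner of Smc4 in condensin, stood at -0.172, -0.742 and -0.598 after cadmium and at 0.322, -0.416 and 0 after PBS. Its groups overlapped, and the difference was -0.47 ± 0.20 (SE; adjusted p = 0.271, limma). Ccna2 was at -0.32 ± 0.11 (SE) and Cdk1 at -0.23 ± 0.09 (SE), each with groups apart. Ccnb2, a B-type cyclin, was at 0.29, Incenp, the scaffold of Aurora B, at 0.22, and Stmn1, a microtubule destabiliser, at 0.10. The probe sets of Stmn1 were at 0.21 and -0.008.

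**Figure D2:**
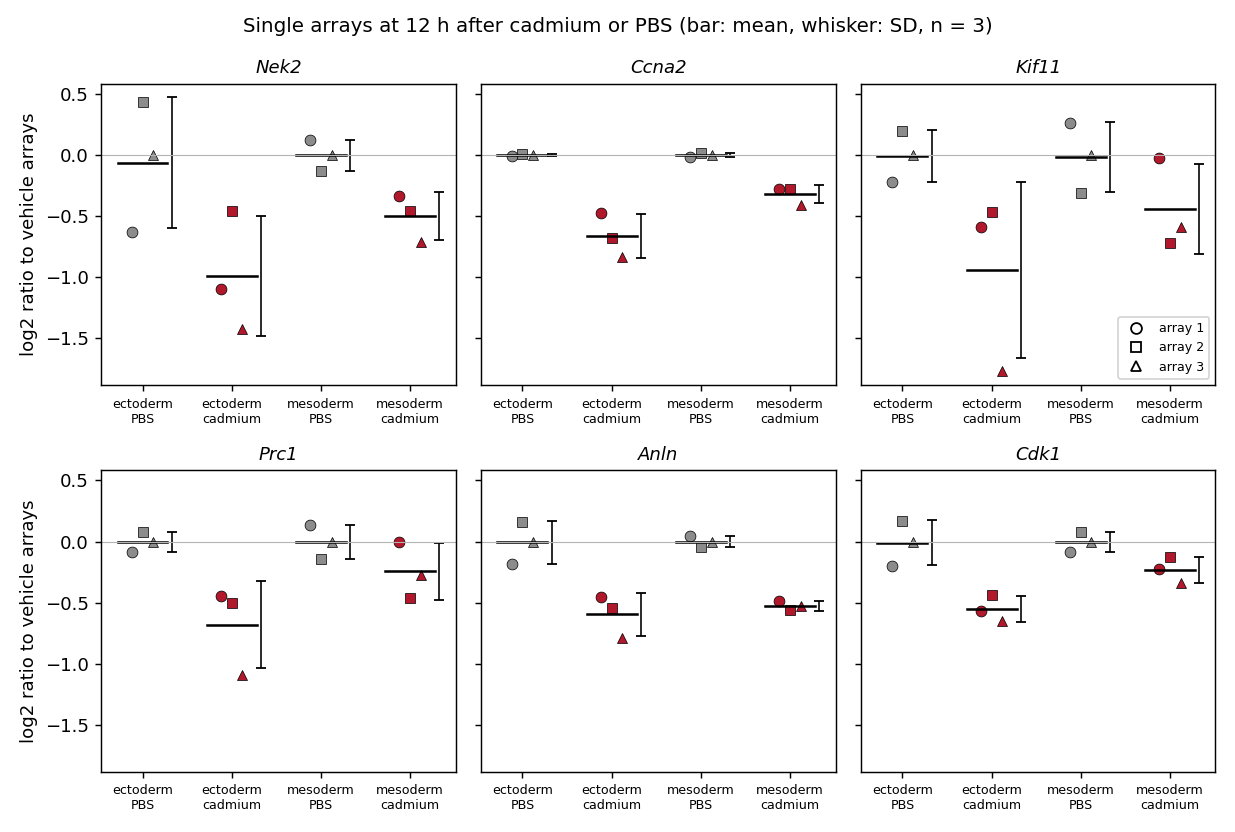
Log2 ratio to the vehicle arrays in each array of the 12 h cadmium comparisons, for the 6 mitosis genes with the largest differences in ectoderm (grey: PBS, red: cadmium; symbols: array number; bar: mean; whisker: SD, n = 3). The ectoderm groups are apart in every gene shown but Nek2, and in mesoderm the groups of Kif11 and Prc1 overlap. The PBS points are tied to each other by the ratio, so their spread is not that of independent measurements.

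Between the layers, 33 of the 39 genes had a lower difference in ectoderm than in mesoderm 12 h after cadmium, against 46.8% of all genes, with a median of -0.25. No mitosis gene passed the test of that difference, nor did any of all genes (0%), and none of the 39 had an unadjusted p under 0.05, against 1.38% of all genes. A difference between the layers was therefore not detectable at this spread. In both layers 25 genes were below 0, against 27.5% of all genes, and 3 were above 0 in both, against 39.6%. Over the layers together, the genes next in order after Nek2 and Ccna2 were Cdk1 at -0.39 ± 0.10 (SE; adjusted p = 0.0702, limma), Kif11 at -0.68 ± 0.19 (SE; adjusted p = 0.0974, limma) and Prc1 at -0.46 ± 0.14 (SE; adjusted p = 0.113, limma).

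At 3 h after cadmium, the mitosis genes were spread around the PBS level. In ectoderm 16 of 39 were below 0, against 53.1% of all genes, with a median of 0.02. In mesoderm 18 were below 0, against 49.7%, with a median of 0.01. None of the 39 passed in either layer, and none of all genes did (0%). At an unadjusted p under 0.05, 1 of the 39 passed in each layer, against 274 of all genes in ectoderm (3.32%) and 255 in mesoderm (3.09%). Leaving out single arrays put these medians between 0.00047 and 0.048 in ectoderm, where the lowest came without array 3 of either group, and between -0.076 (without PBS array 1) and 0.036 (without PBS array 2) in mesoderm. Kif4, a chromosome-bound kinesin, had the largest difference in ectoderm: its cadmium arrays were at 0.527, 0.327 and 0.258, above PBS arrays at 0.0306, -0.0313 and 0. Nek2, the lowest of the 39 over the layers at 12 h, stood at 0.25 ± 0.19 (SE) in ectoderm and 0.21 ± 0.16 (SE) in mesoderm at 3 h. Racgap1, which acts with Kif23, was at 0.24 in ectoderm and Ttk at -0.26. With single arrays left out, Nek2 in ectoderm ran from 0.07 (without PBS array 2) to 0.38 (without PBS array 1), and Ttk from -0.42 (without PBS array 2) to -0.05 (without array 3 of either group). In mesoderm the next largest were Anln and Ect2 at -0.18 each (Anln was at 0.04 without PBS array 2) and Cks1b, a small subunit bound by Cdk1, at 0.18. Ect2 ran from -0.29 (without PBS array 1) to -0.02 (without PBS array 2) and Cks1b from 0.04 (without PBS array 1) to 0.29 (without array 3 of either group). At 3 h all 18 limb ectoderm markers were above 0 in the mesoderm of the cadmium embryos, against 50.3% of all genes, their mean ranging from 0.14 to 0.31 after cadmium and from -0.04 to 0.03 after PBS, and none passed. Their part in these values was not tested.

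The change from 3 to 12 h was tested as a difference of the 2 comparisons, whose animals were separate. In ectoderm 34 of 39 genes were lower at 12 h, against 43.7% of all genes, with a median of -0.29. No mitosis gene passed, and 1 of all genes did (0.0121%). Nek2 moved furthest by p, at -1.17 ± 0.35 (SE; adjusted p = 0.686, limma). In mesoderm 27 were lower, against 46.1%, with a median of -0.10, and none of the 39 passed, against 38 of all genes (0.46%), a count that ran from 3 to 78 with single arrays left out.

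**Figure D3:**
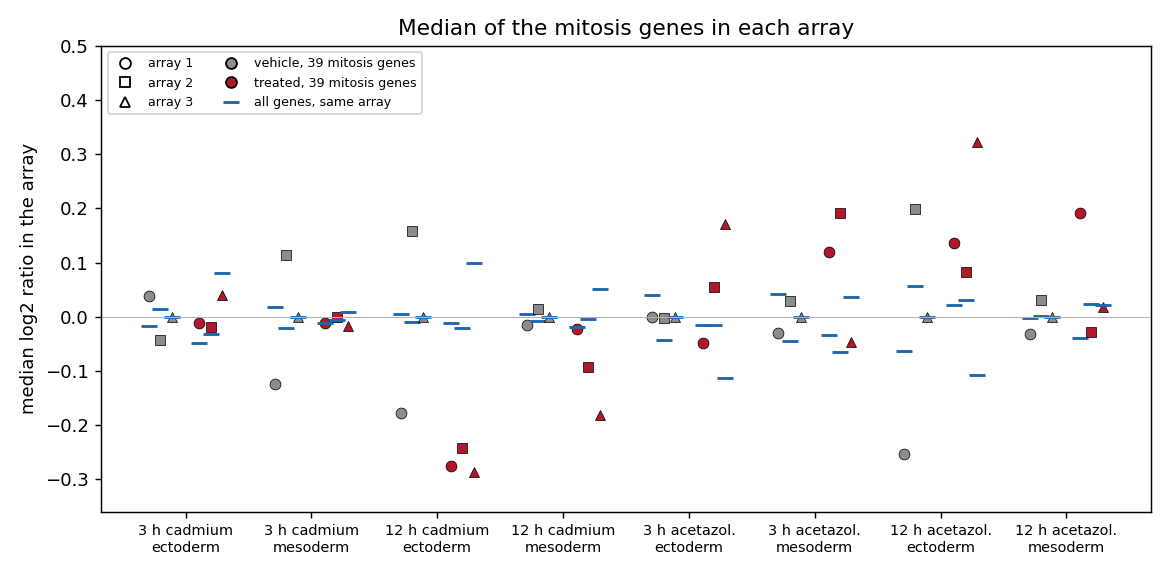
Median log2 ratio of the 39 mitosis genes in each of the 48 arrays (grey: vehicle, red: treated; symbols: array number), with the median of all genes in the same array as a blue dash. In ectoderm 12 h after cadmium the 3 treated arrays sit from -0.29 to -0.24, below PBS arrays from -0.18 to 0.16.

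The array medians show the same order. In ectoderm 12 h after cadmium the median of the 39 genes was -0.27, -0.24 and -0.29 in the cadmium arrays and -0.18, 0.16 and 0 in the PBS arrays. The groups were apart, but the PBS arrays spanned more than the cadmium arrays did. Both statements carry the limit that the vehicle ratios are tied to each other. In mesoderm the medians were -0.02, -0.09 and -0.18 after cadmium and -0.02, 0.01 and 0 after PBS.

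Acetazolamide gave values on the other side. In ectoderm 12 h after acetazolamide, 30 of the 39 genes were above 0, against 49.6% of all genes, with a median of 0.21. The median ran from 0.07 (without oil array 1) to 0.36 (without oil array 2), and it was 0.12 without array 3 of either group. None passed, and none of all genes did (0%), with 649 of all genes at an unadjusted p under 0.05 (7.86%). At that unadjusted threshold 4 of the 39 were higher, against 5.67%, and none was lower. Groups did not overlap for 5, all higher, against 8.48% of all genes. Kif23 was furthest from oil: its acetazolamide arrays were at 0.582, 0.919 and 0.832 and its oil arrays at -0.68, 0.46 and 0. The groups were apart, at a difference of 0.85 ± 0.26 (SE; adjusted p = 0.478, limma). Kif20a stood at 0.418, 0.454 and 0.815 after acetazolamide and at -0.518, 0.377 and 0 after oil, a difference of 0.61 ± 0.21 (SE; adjusted p = 0.559, limma). Prc1 stood at 0.657, 0.567 and 0.548 against -0.138, 0.126 and 0, a difference of 0.59 ± 0.21 (SE; adjusted p = 0.559, limma). Ttk was at 0.56 ± 0.28 (SE), with groups that overlapped.

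In this comparison the oil arrays of the mitosis genes were far apart, at medians of -0.25, 0.20 and 0, and the acetazolamide arrays at 0.14, 0.08 and 0.32. The ratios of 3′ to 5′ probe sets of the RNA controls, a measure of RNA integrity, moved with the group: that of Gapdh was higher by 0.41 on the log2 scale and that of β-actin by 0.23, with no overlap between groups. At 3 h after acetazolamide the Gapdh ratio was higher by 0.45 in ectoderm and 0.59 in mesoderm and the β-actin ratio by 0.26 and 0.52, with no overlap in ectoderm and with overlap in mesoderm. In mesoderm 12 h after acetazolamide the 2 ratios were higher by 0.42 and 0.24, with overlapping groups. The Gapdh ratio there was at 1.72 in acetazolamide array 2 and at -0.19 and -0.05 in arrays 1 and 3. Cell markers moved with the 12 h ectoderm comparison too, with no overlap between groups. The mean of 13 endothelial markers ranged from -0.29 to -0.09 after acetazolamide and from -0.04 to 0 after oil, with 4 above 0. For 12 macrophage markers it ranged from -0.17 to -0.10 and from -0.08 to 0.04, with 2 above 0, and for 18 limb ectoderm markers from 0.07 to 0.24 and from -0.08 to 0.05, with 11 above 0. Of all genes, 49.6% were above 0 in this comparison. None of these markers passed. The part of RNA integrity and of these cells in the values of the mitosis genes was not tested. In ectoderm 12 h after cadmium the Gapdh ratio was higher by 0.49, with array 2 at 1.80 and overlapping groups, and the β-actin ratio differed by 0.0021.

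In mesoderm 12 h after acetazolamide 28 of 39 were above 0, against 53.3% of all genes, with a median of 0.06. The median was 0.12 without acetazolamide array 2 and -0.01 without acetazolamide array 1. None of the 39 and none of all genes passed (0%). At an unadjusted p under 0.05 none of the 39 passed either, against 65 of all genes (0.788%). The largest differences were those of Kif23 and Ccnb2 at 0.33 each, Anln at 0.31 and Kif4 at 0.23. At 3 h the medians after acetazolamide were 0.06 in ectoderm and 0.10 in mesoderm, with 26 and 25 of 39 genes above 0, against 38.9% and 43.5% of all genes. Without array 3 of either group the ectoderm median was 0.02, and without acetazolamide array 1 it was 0.13. The mesoderm median was 0.04 without oil array 1 or acetazolamide array 2. No mitosis gene passed at 3 h, and 2 and 3 of all genes did (0.0242% and 0.0364%). At an unadjusted p under 0.05, 1 of the 39 passed in ectoderm and 2 in mesoderm, against 6.86% and 7.36% of all genes. In ectoderm Smc4 at 0.57 ± 0.28 (SE), Ttk at 0.42, Nek2 at 0.35 and Cdc25c at 0.34 were largest, and Cdc25c was at -0.06 without array 3 of either group. With single arrays left out Smc4 ran from 0.30 to 0.96, Ttk from 0.19 to 0.70 and Nek2 from 0.08 to 0.48. In mesoderm Nek2 was at 0.53 ± 0.20 (SE; adjusted p = 0.551, limma), its acetazolamide arrays at 0.266, 0.523 and 0.777 lying above oil arrays at -0.235, 0.202 and 0. Kif4 was at 0.51, Ttk at 0.47 and Smc2 at 0.40 there. The mean of 21 limb mesoderm markers ranged from -0.26 to -0.21 in the acetazolamide arrays of this comparison and from -0.09 to 0.03 in its oil arrays, with 5 above 0, and its part was not tested.

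Cadmium and acetazolamide were given at different doses and in different vehicles, so their difference is one of the treatments as given. In ectoderm at 12 h, 33 of 39 genes were lower after cadmium than after acetazolamide, each against its own vehicle, compared with 45.4% of all genes, and the median difference was -0.47. None of the 39 passed the test, and none of all genes did (0%). At an unadjusted p under 0.05, 13 of the 39 were lower, against 8.59% of all genes, and none was higher. Prc1 had the smallest p, at -1.27 ± 0.32 (SE; adjusted p = 0.169, limma), followed by Cdk1 at -0.87 ± 0.24 (SE; adjusted p = 0.209, limma) and Nek2 at -1.36 ± 0.38 (SE; adjusted p = 0.217, limma). With equal weights 7 mitosis genes passed, among 297 of all genes. Leaving out ectoderm PBS array 1 let Nek2 pass, and leaving out oil array 2 let Kif20a pass, among 29 and 27 of all genes. In mesoderm 30 of 39 were lower, against 49.8%, with a median of -0.18, and none passed, against 1 of all genes (0.0121%). Below 0 after cadmium and above 0 after acetazolamide were 28 of 39 genes in ectoderm, against 31.8% of all genes, and 20 in mesoderm, against 23.5%.

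**Figure D4:**
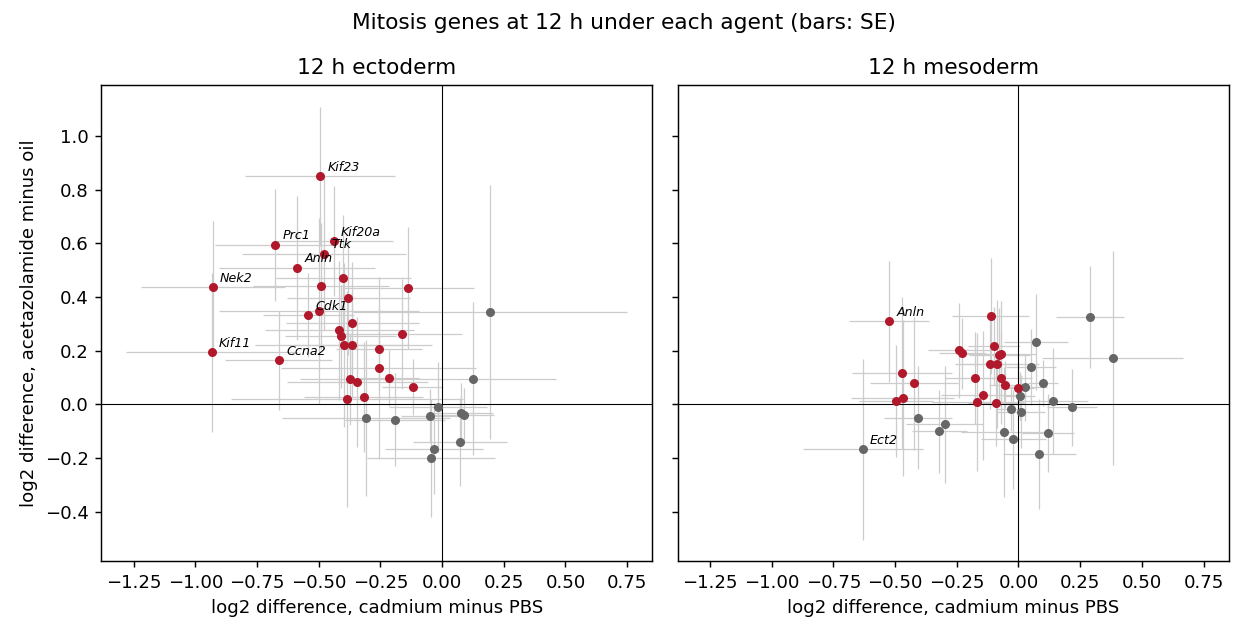
Fitted log2 difference of each mitosis gene 12 h after cadmium (x axis, against PBS) and after acetazolamide (y axis, against oil) in ectoderm and mesoderm, with bars of 1 SE (3 arrays against 3 on each axis). Red points, 28 of 39 in ectoderm and 20 in mesoderm, are below 0 on the x axis and above 0 on the y axis.

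The members did not all move together. Over the 24 treated arrays, the correlation of a gene with the median of the other 38 was highest for Cdk1 (Pearson r = 0.86), Top2a and Kif20a (0.82 each), Nek2 (0.81) and Anln (0.80). It was lowest for Foxm1 (-0.52), Cenpe, a kinetochore motor, and Incenp (-0.39 each) and Stmn1 (-0.37). Arrays of a comparison share their vehicle denominator, so these values only describe the arrays. Ube2c, which feeds the anaphase-promoting complex, and Bub3, a checkpoint protein, had the narrowest ranges among the genes with r above 0, their 8 fitted differences each spanning 0.20.

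Further genes of the division cycle were read from lists that hold no member. Of 59 other mitosis and chromosome cycle genes, 12 were above 0 in ectoderm 12 h after cadmium (median -0.22) and 17 in mesoderm (median -0.09), against 57.6% and 54.4% of all genes. Nek7, a kinase related to Nek2 that acts at the spindle poles, fell in mesoderm by 0.99 (SE 0.13; adjusted p = 6.02e-05, limma) and in the mean of the layers by 0.95 (SE 0.15; adjusted p = 0.000348, limma). It was the only one of the 59 that passed in either, where 1.22% and 0.739% of all genes fell. In ectoderm none of the 59 passed, against 0.0242% of all genes. Wee1, the kinase that holds Cdk1 inactive, was at -1.10 ± 0.40 (SE) there. Aspm, a spindle pole protein, was at -0.93 ± 0.30 (SE) and Nek7 at -0.92 ± 0.26 (SE). Of 46 DNA replication genes none passed, with medians of -0.20 in ectoderm and -0.06 in mesoderm. Of 15 target genes of p53, 4 rose in mesoderm 12 h after cadmium, as did 1.05% of all genes. Among them Cdkn1a, the inhibitor of cyclin-dependent kinases, rose by 1.57 (SE 0.20; adjusted p = 4.89e-05, limma) and Ccng1 by 1.94 (SE 0.27; adjusted p = 6.53e-05, limma). Phlda3 and Zmat3 were the other two. In ectoderm none passed, Ccng1 being at 1.80 ± 0.52 (SE) and Cdkn1a at 1.11 ± 0.38 (SE). Sesn1, the next largest there, lay on the other side at -0.89 ± 0.27 (SE).

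Markers of other cells were measured beside these results. None of 18 limb ectoderm markers and none of 21 limb mesoderm markers passed in ectoderm 12 h after cadmium, with medians of -0.06 and 0.08. All 13 endothelial markers were above 0 there (median 0.18), against 57.6% of all genes, their mean ranging from 0.09 to 0.23 over the cadmium arrays and from -0.13 to 0.11 over the PBS arrays, and none passed. In mesoderm 12 of the 13 were above 0, against 54.4% of all genes. Their mean ranged from 0.14 to 0.43 after cadmium and from -0.08 to 0.06 after PBS. Tie1 (adjusted p = 0.00187, limma) and Eng (adjusted p = 0.0425, limma) rose. Of 11 red blood cell markers, 10 were above 0 in ectoderm and 9 in mesoderm, against 57.6% and 54.4% of all genes. Alas2 (adjusted p = 0.0169, limma) and Nfe2 (adjusted p = 0.0425, limma) rose in mesoderm. Of all genes, 1.05% rose in that mesoderm comparison. No macrophage, neural crest or muscle precursor marker passed in either layer. The part of these cells in the values of the mitosis genes was not tested.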

How the data were processed

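RNA of forelimb bud ectoderm and mesoderm was measured on 48 Affymetrix MG-U74Av2 arrays. The deposited values are ratios: in each of the 8 comparisons, vehicle arrays 1 and 2 sum to 2 for every probe set (largest deviation 3e-07) and vehicle array 3 is 1. That treated arrays 1 and 2 share the denominator of vehicle arrays 1 and 2, and treated array 3 that of vehicle array 3, is inferred from this. The steps before the ratio (probe summary, scaling, detection filter) are not given in the sources used here. Depth has no meaning for arrays, and their number, 3 a group, limits the precision.

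Of 12488 probe sets, 10855 name 1 gene, 396 several and 1237 none in the platform annotation; only the first were used, as log2 ratios averaged per gene (8252 genes). All 39 measured genes matched a RefSeq symbol. limma 3.58.1 (R 4.3.3) fitted all arrays together with a mean for each group of arrays sharing a denominator, 8 agent effects, 12 differences between effects and 4 means over tissues. Weights were 1 over each comparison's median residual variance. There were 24 residual degrees of freedom. p-values were adjusted over all genes (Benjamini-Hochberg), with a threshold of 0.05 on the two-sided test. The script was tested on simulated data. Figures were drawn with matplotlib 3.10.9.

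The members, the lists and the weighted design were chosen with earlier results of these data known. Every measured member could be named. Single arrays are given for the 6 largest differences in ectoderm 12 h after cadmium, up to 4 in each other comparison, and members that passed. Arrays of Smc4, Mki67, Kifc1, Birc5 and Smc2 in the first of these were added after their values were seen. Genes outside the members come from the lists: those that passed and the 3 largest in the 12 h cadmium comparisons. Alternatives were equal weights, no denominator term, a replicate block, fewer arrays, arrays centred on their median, single probe sets, robust variance shrinkage, tissues averaged before the fit, and each array left out in turn.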

Additional observations from a re-analysis of the deposited data

How the results depend on the processing

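The count of mitosis genes that passed was 0 in the 8 comparisons, and it moved in 2 of them: to 5 in ectoderm 12 h after cadmium with equal weights, and in mesoderm 12 h after cadmium to 1 with no denominator term and to 2 with the replicate block. Over all genes these settings called 89, 208 and 230. For cadmium minus acetazolamide in ectoderm at 12 h the count of mitosis genes was 7 with equal weights (297 of all genes) and ran from 0 to 1 with single arrays left out. For the mean of both tissues 12 h after cadmium, 2 in the main fit, it was 5 with equal weights, 3 with the replicate block or with no denominator term, 1 by single probe sets, 0 with arrays 1 and 2 only, 0 with the arrays of the contrasted comparisons only, and from 0 to 4 with single arrays left out. With tissues averaged before the fit it stayed at 2, but the genes were Anln and Ccna2. Over all genes, the calls for this mean were 179 with equal weights, 107 with the replicate block, 108 with no denominator term and 60 with tissues averaged. Weights for single arrays could not be fitted, since the estimate did not converge.

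The median in ectoderm 12 h after cadmium was -0.24 with arrays 1 and 2 only, -0.39 with arrays centred, and from -0.51 to -0.21 with single arrays left out. The median 3 h after cadmium was -0.0030 in mesoderm with arrays 1 and 2 only, and with single arrays left out it ran from -0.076 to 0.036 in mesoderm and from 0.00047 to 0.048 in ectoderm. In ectoderm 12 h after acetazolamide it ran from 0.074 to 0.36. Anln in mesoderm 3 h after cadmium turned to 0.036 without PBS array 2 (range -0.38 to 0.036 with single arrays left out), and Cdc25c in ectoderm 3 h after acetazolamide to -0.063 with arrays 1 and 2 only or without array 3 of either group (range -0.063 to 0.56). The causes were not tested, beyond the fewer arrays of some settings. Other medians moved by less than the SD between arrays but by much of their own size: with single arrays left out the median ran from -0.14 to -0.015 in mesoderm 12 h after cadmium, from -0.0063 to 0.12 in mesoderm 12 h after acetazolamide, and from 0.035 to 0.12 in mesoderm and 0.019 to 0.13 in ectoderm 3 h after acetazolamide.

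The array numbers were not taken to pair the samples, since not every comparison bears it out: the correlation across genes of the array 1 minus array 2 difference between treated and vehicle groups ran from -0.20 to 0.65 over the 8 comparisons. It was 0.65 in mesoderm 12 h after cadmium, where the block changed the calls, 0.55 in mesoderm and 0.22 in ectoderm 3 h after acetazolamide, and under 0.1 in the other comparisons. With the replicate block, no other count of members changed by over 1.5 times.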
